A study of Mus musculus with 6 samples.

Results

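The genes described here encode chromatin remodellers, histone-modifying enzymes, readers of histone marks and histones, and their RNA was measured in small intestinal organoids from Smarcad1 WT and KO mice. The members were the rows of the deposited expression table whose gene symbol begins with one of 23 name stems: Smarc, Chd, Arid, Ino80, Hdac, Sirt, Kdm, Kmt, Setd, Ehmt, Ezh, Prmt, Kat, Dnmt, Tet, Brd, Baz, Cbx, Phf, Hist, H1f, H2af or H3f, where Chd, Kat and Tet count only when a digit follows them. This rule found 13 of the 1420 genes in the table. They are the remodellers Smarcad1, Chd5 and Chd1, the deacetylase Hdac7, the methyltransferases Setd4 and Prmt2, the demethylases Kdm6b, Kdm4b and Kdm5a, the chromodomain or PHD-finger proteins Cbx6 and Phf10, and the histones H2afv and H1fx. The rule uses symbols only and no measured value.

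Organoids, which are small epithelial bodies cultured from crypts, were grown here from C57BL/6 mice that carried the Smarcad1 deletion (KO) and from littermates that did not (WT), with 3 libraries in each group. The growth protocol and the study's methods name ZP3-Cre, which is active in the oocyte and so removes the floxed exons from every cell of the offspring, whereas the genotype label names a Vil-Cre mediated deletion, which would be restricted to the epithelium. About 600 organoids per condition were collected after 5 days, and poly(A)-selected, directional libraries were made from 500 ng of total RNA and sequenced as 50 bp paired-end reads. No treatment or age is given in the labels, and the labels do not say whether the 3 libraries of a group came from separate mice, so the p-values measure the spread between these libraries, which may be technical.

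DNA in the nucleus is wound around histones into nucleosomes. Remodelling ATPases slide, space or evict nucleosomes, methyltransferases and deacetylases write or erase marks on histone tails, demethylases remove methyl marks, and reader domains such as chromodomains and PHD fingers bind them. In the intestinal epithelium, where stem cells in the crypt continually renew secretory and absorptive lineages, Polycomb marks, histone acetylation and nucleosome remodelling are known to take part in keeping lineage genes on or off. Smarcad1 itself is an ATPase of the SNF2 family, known for maintaining silent chromatin through DNA replication and for assisting DNA end resection at breaks.

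The values are in RPM, the reads on a gene per 1000000 mapped reads of its library, and the depth read from their step size was 12867000 to 15658000 reads in WT and 12422000 to 14570000 reads in KO. The table holds only genes that the authors had already called as changed on these same libraries, so every count of changed genes below describes a selected list and is not independent evidence of change. With limma on log2(RPM + 0.1) and Benjamini-Hochberg adjustment over all rows, 1419 of 1420 genes had an adjusted p under 0.05, which is 99.9%. Genes higher in KO were 52.5% of all rows and genes lower in KO were 47.4%. In the same fit all 13 chromatin genes passed, with 5 higher (38.5%) and 8 lower (61.5%) in KO. An absolute log2 change of at least 1 was reached by 27.1% of all rows (19.0% higher and 8.10% lower) and by 3 chromatin genes, namely Smarcad1 and Chd5, which fell, and H1fx, which rose. The WT and KO values did not overlap in 98.5% of all rows and in 11 of the 13 chromatin genes, the exceptions being Kdm6b and H2afv. In a comparison of 3 against 3 libraries the exact 2-sided permutation test cannot give a p below 0.1, and it gave 0.1 for the 11 genes without overlap and 0.2 for Kdm6b and H2afv.

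The marker genes of the tissue also moved between the groups. Of 15 genes that define intestinal epithelium only Krt18 was listed, at 975 to 1029 RPM in WT and 1303 to 1923 RPM in KO, and the others were not analysed here. Lineage genes of the epithelium were present in WT as well, among them Fabp1 of enterocytes at 3748 ± 273.9 RPM, Lyz1 of Paneth cells at 2953 ± 62.2 RPM and Muc2 of goblet cells at 385 ± 42.3 RPM (SD, n = 3 each). Of 22 Paneth cell genes, 15 were listed and all 15 rose, with a summed level of 9960 to 11470 RPM in WT and 20480 to 29980 RPM in KO. Of 21 goblet cell genes, 11 were listed, with 10 higher and 1 lower, and a summed level of 2260 to 2507 RPM in WT and 3462 to 6282 RPM in KO. All 6 listed of 26 enteroendocrine genes and all 3 listed of 15 stem cell genes were higher. Of 30 enterocyte genes, 15 were listed, with 10 lower and 5 higher in KO, and of 14 tuft cell genes only Dclk1 was listed, and it was lower. Of 25 proliferation genes only Rrm2 was listed, and it fell from 185 to 196 RPM in WT to 138 to 150 RPM in KO. Of 20 genes of cells outside the epithelium only Itgam was listed, at 8.55 to 10.7 RPM in WT and 2.82 to 5.83 RPM in KO. No listed marker was at 0 in every library. In bulk RNA a change in the number of cells of a type and a change in RNA per cell cannot be told apart, and the part of these marker shifts in the values of the chromatin genes was not tested.

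**Figure D1:**
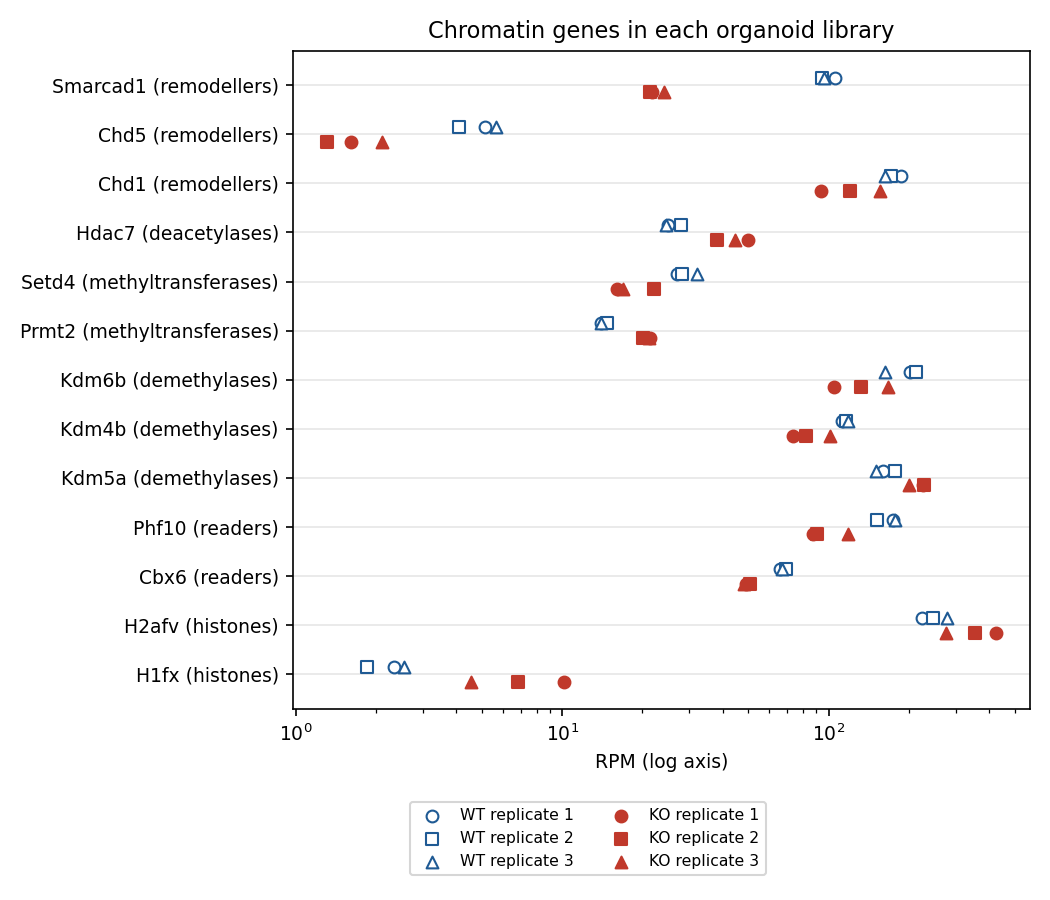
RPM of the 13 chromatin genes in each library on a log axis, with WT libraries as open blue symbols, KO libraries as filled red symbols and the symbol shape giving the replicate number. The 3 KO libraries sit apart from the WT libraries in 11 genes and overlap them in Kdm6b and H2afv.

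Smarcad1, the deleted gene, was the chromatin gene with the largest fall. The WT libraries held 105, 94.7 and 96.3 RPM, against 21.7, 21.3 and 24.0 RPM in KO. Every KO library was far below every WT library, in the direction the genotype labels give. The mean fell from 98.8 ± 5.80 RPM (SD, n = 3) to 22.3 ± 1.49 RPM (SD, n = 3), which is 22.6% of the WT level and a log2 change of -2.14 (SE 0.10, limma adjusted p = 5.6e-05). The RNA that was left corresponded to 269, 310 and 343 reads in the KO libraries, against 1357, 1483 and 1476 reads in the WT libraries. It was therefore well above the level of 3 reads, which is 0.206 to 0.242 RPM in the KO libraries. The KO spread was small, with a coefficient of variation (CV, the SD as a percentage of the mean) of 6.69%, against a median of 17.2% over the 13 genes in KO.

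The gene lies at chr6:65042583-65116061 on the plus strand of GRCm38, and the study's methods place the loxP sites around exons 12 to 14, which hold the ATP-binding residues. In the longest coding GENCODE M21 transcript, which has 24 exons and 5168 bases, these exons are chr6:65092495-65092594, chr6:65094131-65094190 and chr6:65094290-65094365. Together they hold 236 coding bases and make up 4.57% of the transcript. The deleted sequence is shown because it is what separates the 2 genotypes, with the codons of the glycine-x-glycine-lysine-threonine run in capitals, which is the nucleotide-binding motif of this ATPase family and the only such run among the 1021 codons of the reading frame.
Smarcad1 exons 12 to 14: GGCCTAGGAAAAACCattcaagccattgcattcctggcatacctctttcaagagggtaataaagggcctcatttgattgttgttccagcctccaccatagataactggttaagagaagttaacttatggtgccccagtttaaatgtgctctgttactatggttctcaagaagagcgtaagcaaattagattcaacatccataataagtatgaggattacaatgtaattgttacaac
The motif begins at codon 520 and opens exon 12. Because 236 bases leave a remainder of 2 after division by 3, joining exon 11 to exon 15 shifts the frame. The junction is shown with the last 30 bases of exon 11 and the first 6 bases of the joined exon, and the capitals mark the in-frame stop codon that ends the shifted frame 1 codon after the junction.
Smarcad1 exon 11 to 15 junction: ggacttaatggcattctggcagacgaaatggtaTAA
Both sequences were computed from the annotation. The deposited values are sums over the whole gene, and reads across this junction were not analysed here.

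The chromodomain helicases Chd5 and Chd1 also fell. Chd5, an ATPase found in NuRD-type remodelling complexes and best known in neurons and testis, was at 5.13, 4.09 and 5.61 RPM in WT and at 1.61, 1.30 and 2.10 RPM in KO. All 3 KO libraries were below all 3 WT libraries, at 33.8% of the WT mean. The mean fell from 4.94 ± 0.780 RPM to 1.67 ± 0.403 RPM (SD over 3 libraries each), with a log2 change of -1.52 (SE 0.20, limma adjusted p = 0.00171). These low values rest on 66, 64 and 86 reads in WT and on 20, 19 and 30 reads in KO.

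Chd1, which binds methylated lysine 4 of histone H3 and spaces nucleosomes along transcribed genes, was at 187, 171 and 163 RPM in WT and at 93.3, 121 and 156 RPM in KO. The KO libraries were spread widely, and KO replicate 3 came close to the lowest WT library. The mean fell from 174 ± 12.1 RPM to 123 ± 31.4 RPM (SD over 3 libraries each), with a log2 change of -0.52 with a 95% interval of -0.99 to -0.06 (limma adjusted p = 0.0331). The call was lost when any library other than KO replicate 3 was left out, with the adjusted p ranging from 0.00684 without KO replicate 3 to 0.0910. It was also lost with the replicate number as a block (limma adjusted p = 0.0588). The log2 change was -0.34 without KO replicate 1 and -0.71 without KO replicate 3, and it stayed between -0.47 and -0.57 without any of the other libraries. When a smooth trend of each library's deviations with transcript length was removed, here called the length trend, the log2 change of Chd1 was -0.33. Chd1 lies at chr17:15704967-15772610, among listed genes of the proximal part of chromosome 17. Phf10, which also fell, lies at chr17:14945009-14961273, and its nearest listed gene is Chd1, 744 kb away. The listed gene nearest to Chd1 is Rgmb, 33.6 kb away, which was higher in KO (log2 change 0.39).

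The enzymes that act on histone tails moved in both directions. Hdac7, a class IIa deacetylase that acts as a corepressor of MEF2 factors, was the enzyme with the largest rise. It was at 25.0, 27.8 and 24.5 RPM in WT and at 49.9, 38.0 and 44.5 RPM in KO, with no overlap. The mean rose 1.71-fold, from 25.8 ± 1.81 RPM to 44.1 ± 5.99 RPM (SD over 3 libraries each), with a log2 change of 0.77 (SE 0.13, limma adjusted p = 0.00351). Its neighbour on the opposite strand, Slc48a1, shares 0.429% of the exon bases of Hdac7 and was listed as well, at 34.3 ± 0.148 RPM in WT and 46.5 ± 4.31 RPM in KO (log2 change 0.43, limma adjusted p = 0.00939). Whether reads were counted by strand is not given in the sources used here. The same limit applies to Phf10, H1fx and Kdm6b, which shares 4.11% of its exon bases with Kdm6bos on the opposite strand. It also applies to Kdm5a, for which opposite-strand genes (Ccdc77 and Gm24592) share 1.77% in all. Setd4 shares 1.12% with AC160993.1 and Chd5 shares 1.05% with Gm13645, both on the opposite strand, so the limit holds for them as well.

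The 2 methyltransferases moved in opposite directions. Setd4, a SET-domain lysine methyltransferase, was at 27.0, 28.2 and 31.9 RPM in WT and at 16.0, 22.2 and 17.0 RPM in KO. It fell to 63.3% of the WT mean, a log2 change of -0.67 (SE 0.15, limma adjusted p = 0.00770). Prmt2, an arginine methyltransferase and nuclear receptor coactivator, was at 13.99, 14.7 and 13.97 RPM in WT and at 21.3, 20.1 and 21.1 RPM in KO. Its replicates lay close together in both groups, with a CV of 2.89% in WT and 2.97% in KO. The mean rose 1.46-fold, a log2 change of 0.55 (SE 0.09, limma adjusted p = 0.00316), and with a length trend removed the change was 0.35.

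Of the 3 lysine demethylases, Kdm6b and Kdm4b fell and Kdm5a rose. Kdm6b, also called JMJD3, removes the Polycomb methyl mark from lysine 27 of histone H3. It was at 203, 213 and 163 RPM in WT and at 105, 133 and 168 RPM in KO. KO replicate 3 was above the lowest WT library, so the groups overlapped. The mean was 193 ± 26.2 RPM in WT and 135 ± 31.4 RPM in KO (SD over 3 libraries each), with a log2 change of -0.53 (SE 0.20, limma adjusted p = 0.0338). Without WT replicate 1, WT replicate 2, KO replicate 1 or KO replicate 2 the call was lost, with a highest adjusted p of 0.102. It was also lost with the replicate number as a block (limma adjusted p = 0.0666, and 0.0527 with the length trend also removed).

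Kdm4b, or JMJD2B, removes methyl groups from lysine 9 of histone H3, a mark of heterochromatin. It was at 112, 116 and 118 RPM in WT and at 73.8, 82.2 and 101 RPM in KO. The WT libraries were tightly grouped and all 3 KO libraries were below them, at 74.2% of the WT mean (log2 change -0.44, SE 0.14, limma adjusted p = 0.0182). Without WT replicate 3 or KO replicate 2 the adjusted p rose above 0.05, to at most 0.0593.

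Kdm5a, which removes methyl groups from lysine 4 of histone H3, was at 161, 178 and 151 RPM in WT and at 226, 229 and 200.3 RPM in KO. It was the demethylase that rose, to 134% of the WT mean, with a log2 change of 0.42 (SE 0.11, limma adjusted p = 0.0120). It has the longest transcript of the 13 genes, at 10.9 kb, and with a length trend removed its log2 change was 0.67.

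Cbx6 and Phf10 both fell. Cbx6, a chromodomain subunit of Polycomb repressive complex 1, was at 65.6, 69.2 and 67.0 RPM in WT and at 48.9, 50.8 and 47.9 RPM in KO. Its libraries lay close together in both groups, with a CV of 2.67% in WT and 2.95% in KO, and its level in KO was 73.2% of the WT mean (log2 change -0.45, SE 0.09, limma adjusted p = 0.00545). The call of Cbx6 was lost with the length trend removed and the replicate number as a block (log2 change -0.335, limma adjusted p = 0.0593). Phf10, also called BAF45A, is a PHD-finger subunit of the PBAF form of the SWI/SNF remodelling complex, found in proliferating progenitors. It was at 174, 151 and 178 RPM in WT and at 87.2, 90.9 and 118 RPM in KO. All KO libraries were below all WT libraries, at 58.8% of the WT mean (log2 change -0.77, SE 0.15, limma adjusted p = 0.00482). An uncharacterised gene on the opposite strand, 1600012H06Rik, shares 9.56% of the exon bases of Phf10, and Npcd on the same strand shares 5.31% of those of Cbx6. Reads in those bases cannot be assigned from the deposited values. The same holds for Mir678, which shares 2.48% of the exon bases of Prmt2 on the same strand, and for Gm47286, which shares 1.97% of those of H1fx. The deposited feature name differs from the symbol in 282 of the 1420 rows. Among them are Cbx6 (Npcd), Phf10 (1600012H06Rik), Hdac7 (Slc48a1) and Kdm5a (Ccdc77), which were taken here by symbol.

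**Figure D2:**
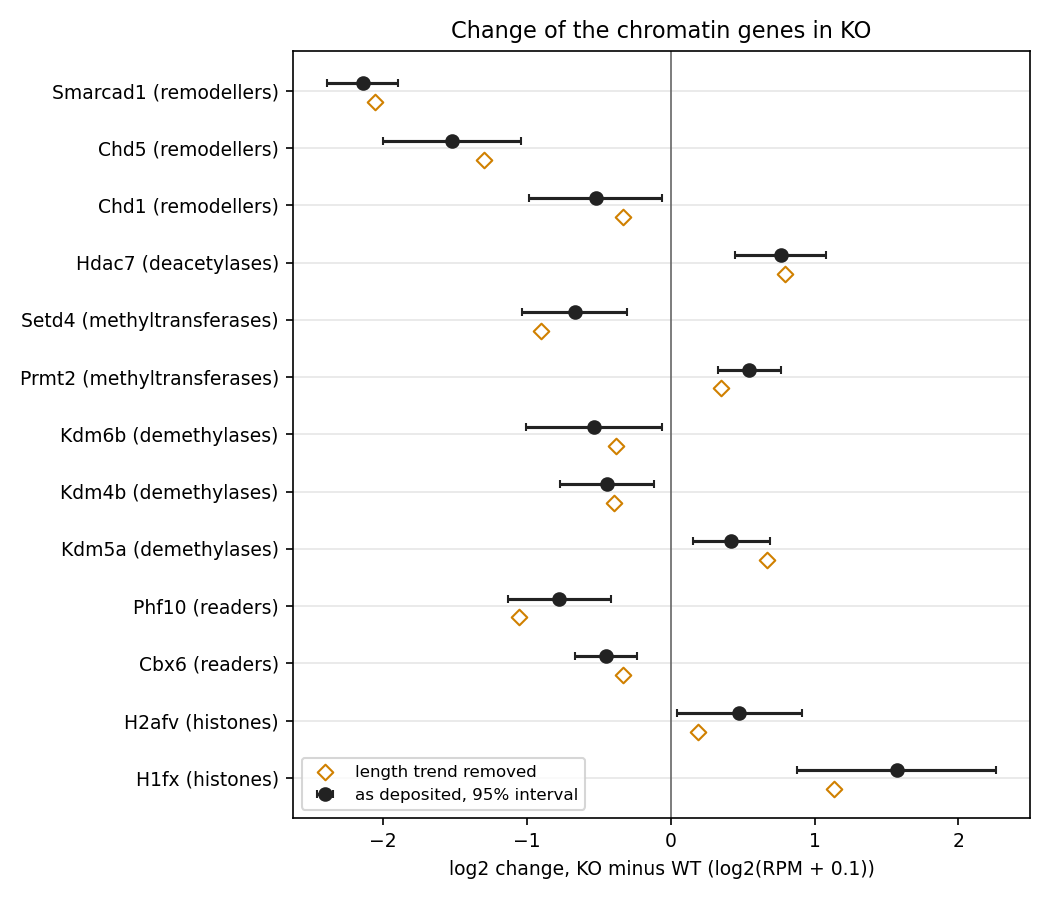
Log2 change of each chromatin gene, KO minus WT, on the log2(RPM + 0.1) scale. Black points with bars are the limma estimates with 95% intervals and open orange diamonds are the estimates after a trend with transcript length was removed; the estimates run from -2.14 for Smarcad1 to 1.57 for H1fx, and H2afv moves from 0.48 to 0.19.

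Both histone genes were higher in KO, and both encode replication-independent histones whose messages carry a poly(A) tail, unlike most of the clustered histone genes, of which the stem Hist had 67 annotated and 0 listed. H1fx, a linker histone that binds the DNA between nucleosomes, was at 2.33, 1.85 and 2.55 RPM in WT and at 10.1, 6.79 and 4.55 RPM in KO. Every KO library was above every WT library, but the KO libraries differed among themselves by more than for any other chromatin gene, with a CV of 39.3%. The mean rose 3.19-fold, from 2.24 ± 0.355 RPM to 7.16 ± 2.81 RPM (SD over 3 libraries each), with a log2 change of 1.57 with a 95% interval of 0.88 to 2.26 (limma adjusted p = 0.00423). The values rest on 30, 29 and 39 reads in WT and 126, 99 and 65 reads in KO. H1fx is a single-exon gene of 1217 bases at chr6:87980421-87981637 on the minus strand, and Gm5577 on the other strand shares 17.5% of these bases.

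H2afv encodes the histone variant H2A.Z.2, which replaces H2A in nucleosomes around promoters. It was at 225, 247 and 278 RPM in WT and at 427, 354 and 276 RPM in KO. KO replicate 3 lay within the WT range and the other 2 KO libraries lay above it. The mean was 250.1 ± 26.7 RPM in WT and 352 ± 75.7 RPM in KO (SD over 3 libraries each), with a log2 change of 0.48 with a 95% interval of 0.04 to 0.91 (limma adjusted p = 0.0361). This call was lost without WT replicate 1, WT replicate 2, KO replicate 1 or KO replicate 2 (highest adjusted p 0.107). It was also lost with the libraries centred on their medians (log2 change 0.39, adjusted p = 0.0944) and with a length trend removed (log2 change 0.19, adjusted p = 0.223). With the replicate number as a block it was lost too (limma adjusted p = 0.0756). H2afv lies in the first part of chromosome 11, at chr11:6427229-6444443.

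Promoter sequences of RefSeq on GRCm38.p6, from 250 bases before to 50 bases after each start, were available for 9 of the 13 genes, with H1fx found under its newer symbol H1f10 and H2afv under H2az2. Where the table gives several starts, 4 for Hdac7 and 2 each for Chd5 and Smarcad1, the one nearest the edge of the deposited row was taken. The promoters held 6 to 62 CpG dinucleotides in 300 bases, with a median of 29, against a median of 7 (quartiles 3 and 20) over all 32851 promoters of the table. Hdac7, with 6, was the only one of the 9 below that median. The GC box GGGCGG was found on either strand in 6 of 9, against 35.7% of all promoters, and the CCAAT box CCAAT in 3 of 9, against 37.4%. The TATA box TATAAA was in 1 of 9 (13.6% of all), the E-box CACGTG in 1 of 9 (7.15%), the CRE core TGACG in 4 of 9 (20.8%) and the ETS core CCGGAA in 2 of 9 (14.9%). These are matches of letters in a window and not binding sites. The comparison is with all RefSeq promoters, whether or not their genes are expressed in organoids. Promoters of the other listed genes were not analysed here. The promoters of both histone genes, which rose, and of Chd5, the gene after Smarcad1 with the largest fall, are shown with GC box and CCAAT matches on either strand in capitals.
H1fx, chr6:87981433-87981732, minus strand: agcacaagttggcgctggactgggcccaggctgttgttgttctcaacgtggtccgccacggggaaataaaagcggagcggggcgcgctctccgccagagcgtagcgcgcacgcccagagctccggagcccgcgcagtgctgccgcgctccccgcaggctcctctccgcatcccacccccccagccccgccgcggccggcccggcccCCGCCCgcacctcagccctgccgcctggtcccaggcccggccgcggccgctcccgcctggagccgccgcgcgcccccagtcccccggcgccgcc
H2afv, chr11:6444394-6444693, minus strand: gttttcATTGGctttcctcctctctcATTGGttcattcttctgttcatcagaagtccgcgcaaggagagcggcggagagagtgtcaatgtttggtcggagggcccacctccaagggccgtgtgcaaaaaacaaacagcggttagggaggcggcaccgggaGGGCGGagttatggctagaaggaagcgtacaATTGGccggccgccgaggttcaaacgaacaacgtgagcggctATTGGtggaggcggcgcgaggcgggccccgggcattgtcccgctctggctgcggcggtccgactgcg
Chd5, chr4:152338401-152338700, plus strand: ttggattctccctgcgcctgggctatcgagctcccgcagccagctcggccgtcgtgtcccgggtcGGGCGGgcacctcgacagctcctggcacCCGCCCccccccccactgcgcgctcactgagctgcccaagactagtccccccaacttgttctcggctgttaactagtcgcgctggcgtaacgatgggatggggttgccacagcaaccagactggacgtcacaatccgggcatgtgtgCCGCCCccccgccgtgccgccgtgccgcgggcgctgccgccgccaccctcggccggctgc
H1fx has 1 GC box and 0 CCAAT matches among 40 CpG. H2afv has 1 GC box and 4 CCAAT matches among 27 CpG. Chd5 has 3 GC boxes and 0 CCAAT matches among 32 CpG. The RefSeq start of H1fx lies 155 bases inside the row of the deposited table.

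Taken as a list, the 13 genes had a median log2 change of -0.45, and of -0.45 without Smarcad1, while the median over all rows was 0.38. Their median absolute change was 0.55, against 0.64 over all rows. Their median level of 60.6 RPM was near that of all rows, at 63.6 RPM, and their median transcript length of 4.58 kb was above that of all rows, at 2.88 kb. In GENCODE M21, 245 protein-coding genes carry one of the stems, so 5.31% of them were listed, against 6.06% of all 21992 protein-coding genes. Without the clustered Hist genes the share was 7.30% of 178. Nothing particular to these genes is read from either share. Of the 23 stems, 13 had no listed gene, among them Dnmt, Ehmt, Ezh, Kmt, Sirt, and Tet and Kat followed by a digit, and their levels were not analysed here.

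Levels of different genes were compared per kilobase of annotated exon. In WT the order was H2afv at 153 RPM per kb, Phf10 at 34.2, Kdm6b at 27.8, Kdm4b at 23.6, Chd1 at 19.9, Kdm5a at 11.5, Smarcad1 at 7.42, Cbx6 at 6.34, Setd4 at 5.40, Prmt2 at 4.20, Hdac7 at 3.82, H1fx at 1.84 and Chd5 at 0.516 RPM per kb. Of the 12 neighbouring pairs in this order, only Kdm6b and Kdm4b had WT values that overlapped. The order also depends on the length used, which overlap between libraries does not measure. The annotated exons of Smarcad1 add up to 13.3 kb, while its longest coding transcript has 5.17 kb. These lengths were 4.91 and 1.66 kb for Phf10 and 5.38 and 1.83 kb for Setd4, but both were 1.63 kb for H2afv. The order per kilobase of transcript was not analysed here. In KO, Smarcad1 moved from place 7 to place 12, at 1.68 RPM per kb, and Hdac7 moved from place 11 to place 7, at 6.53 ± 0.886 RPM per kb. The KO levels of Hdac7, Prmt2 (6.16 ± 0.183) and H1fx (5.89 ± 2.31 RPM per kb) overlapped, so places 7 to 9 were not separate. The KO values of H1fx also overlapped those of Cbx6 (4.64 ± 0.137) at place 10 and Setd4 (3.42 ± 0.616) at place 11. Places 2 to 6 in KO were not separate either, as neighbouring genes overlapped. They were Phf10 (20.1 ± 3.46), Kdm6b (19.4 ± 4.52), Kdm4b (17.5 ± 2.85), Kdm5a (15.4 ± 1.1) and Chd1 (14.1 ± 3.60 RPM per kb). H2afv remained first and Chd5 last in both groups.

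The KO libraries differed in how far the chromatin genes lay from WT. KO replicate 1 was the library farthest from the WT mean in 9 of 13 genes, and KO replicate 3 was the nearest in 9 of 13. Over all rows the same libraries were farthest in 61.4% and nearest in 65.4%. The median log2 deviation of the 13 genes from the WT mean was -0.65 in KO replicate 1, -0.40 in KO replicate 2 and -0.19 in KO replicate 3. The corresponding medians over all rows were 0.29, 0.38 and 0.23. Between KO replicates 1 and 3, Chd1 differed by -0.74, Kdm6b by -0.67, Kdm4b by -0.45, H2afv by 0.63 and H1fx by 1.14 on the log2 scale, whereas Cbx6 differed by 0.03 and Prmt2 by 0.01.

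**Figure D3:**
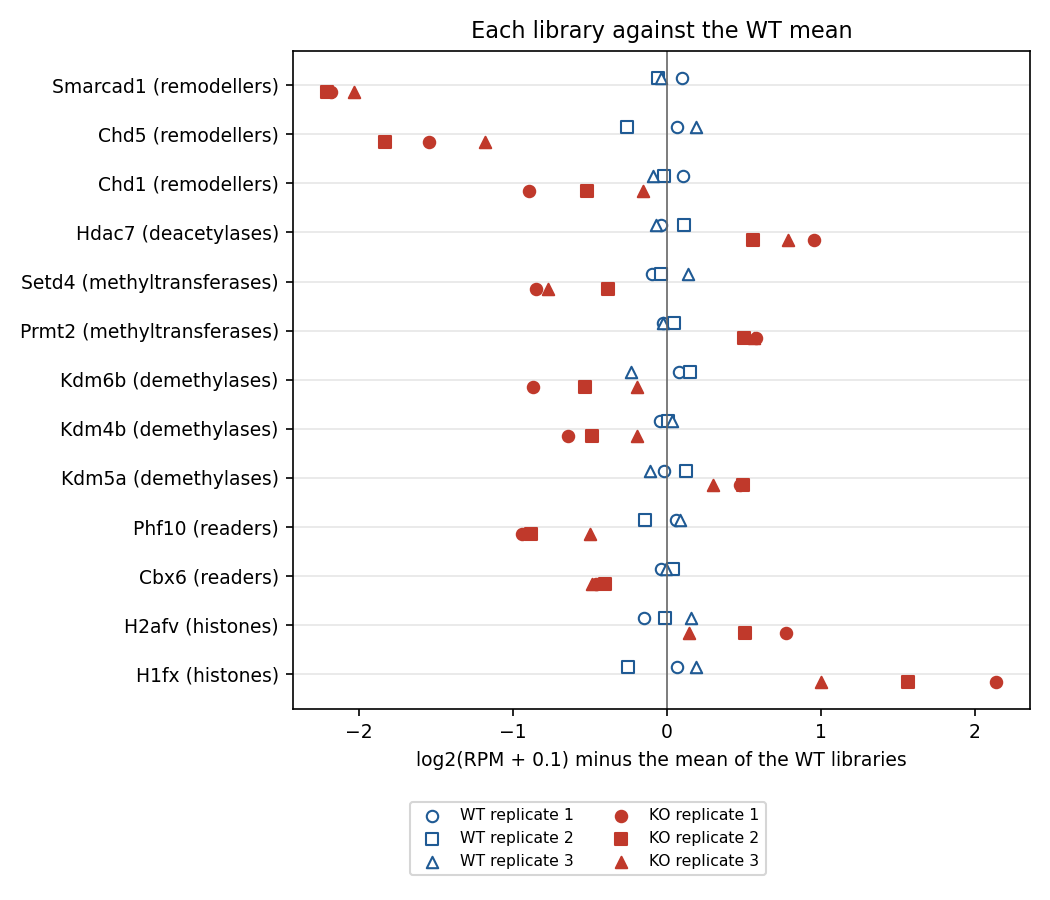
Deviation of each library from the WT mean on the log2(RPM + 0.1) scale for the 13 chromatin genes, with open blue symbols for WT, filled red symbols for KO and shapes for the replicate number. KO replicate 1 is the farthest from 0 in 9 genes and KO replicate 3 the nearest in 9 genes.

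These differences between KO replicates moved with transcript length. Across the 13 genes, Spearman's rho between transcript length and the log2 difference of KO replicate 1 from KO replicate 3 was -0.42, and across the 1397 rows with a length it was -0.50. The same measure between WT replicates 1 and 3 was 0.53 across the 13 genes and 0.29 across all rows. For the change between KO and WT, rho was -0.37 across the 13 genes and -0.22 across all rows. These are descriptions across genes that share the same libraries, with no test. The short genes H1fx (1.22 kb), H2afv (1.63 kb) and Prmt2 (2.10 kb) were higher in KO and the long genes Chd5 (9.49 kb), Chd1 (7.92 kb) and Kdm6b (6.65 kb) were lower, but Phf10 (1.66 kb) and Setd4 (1.83 kb) were short and lower, and Kdm5a was long and higher. With a length trend removed from every library, all 13 genes kept their direction and H2afv alone lost its call, while 89.3% of the 1397 rows were called.

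**Figure D4:**
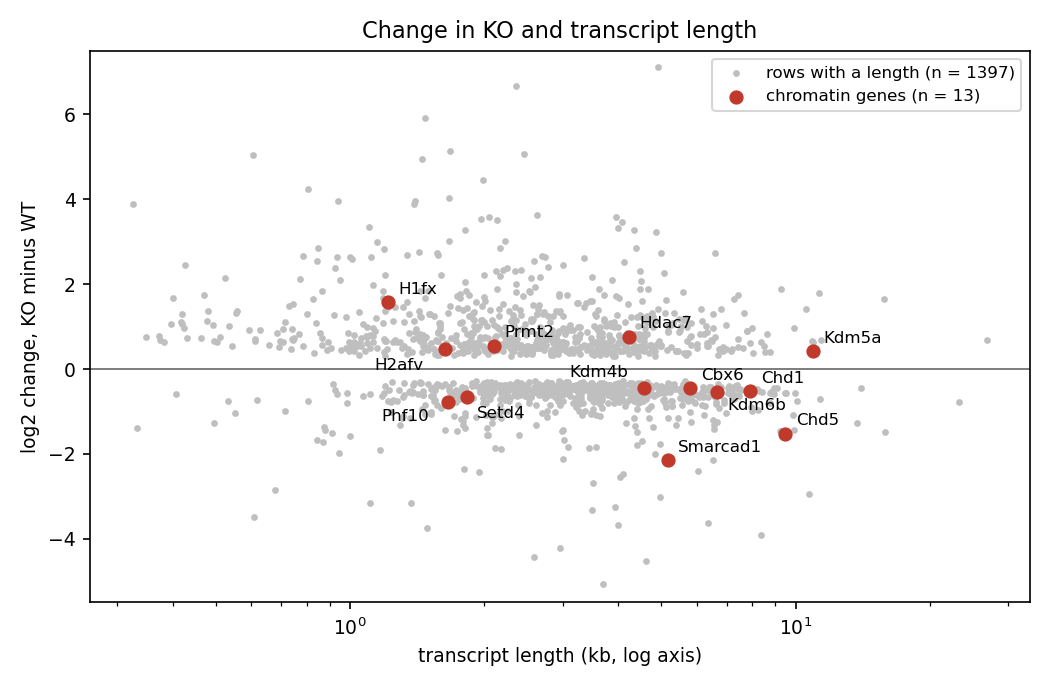
Log2 change, KO minus WT, on the log2(RPM + 0.1) scale against transcript length in kb on a log axis, with the 13 chromatin genes in red and labelled and the 1397 rows with a length in grey. H1fx, H2afv and Prmt2 lie at short lengths above 0, Chd1, Kdm6b and Chd5 at long lengths below 0, and Phf10, Setd4 and Kdm5a lie on the opposite sides.

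Other genes of the chromatin machinery that the stems do not reach were counted from 8 lists of 292 gene names in all. Some of these are older and newer names of the same gene, such as Whsc1 and Nsd2. The table held 7 of them, or 2.40% of the names, against 6.06% of all protein-coding genes. The names were not matched to the annotation, so these shares do not have the same base. All 7 passed the test, as did 99.9% of all rows, with 5 higher and 2 lower in KO (52.5% and 47.4% over all rows) and a median log2 change of 0.43 (0.38 over all rows). Hmga1, an architectural protein that bends AT-rich DNA, was at 81.9, 76.8 and 75.1 RPM in WT and at 273, 237 and 252 RPM in KO. It rose 3.26-fold, from 77.9 ± 3.56 RPM to 254 ± 18.1 RPM (log2 change 1.70, limma adjusted p = 0.000105), and was the only one of the 7 with a log2 change of at least 1. The methyl-CpG binding protein Mbd1 rose from 126 to 170 RPM (log2 change 0.43, limma adjusted p = 0.00930), the histone methyltransferase Smyd3 from 23.4 to 33.5 RPM (0.51, adjusted p = 0.0104), the SNF2-family helicase Zranb3 from 24.0 to 34.9 RPM (0.53, adjusted p = 0.0164) and the histone chaperone Nap1l1 from 228 to 281 RPM (0.30, adjusted p = 0.0187). The call of Nap1l1 was lost with the libraries centred on their medians (0.21, adjusted p = 0.0734) and without WT replicate 1, WT replicate 2 or KO replicate 2 (highest adjusted p 0.0686). That of Zranb3 was lost without WT replicate 3 (adjusted p = 0.0535) or KO replicate 2 (adjusted p = 0.0503). The MBT-domain Polycomb protein L3mbtl2 fell from 75.7 to 58.7 RPM (-0.37, adjusted p = 0.0136) and the NuRD subunit Gatad2a from 265 to 198 RPM (-0.42, adjusted p = 0.0136), and the call of L3mbtl2 was lost without WT replicate 1 (adjusted p = 0.0556). No gene of the list of 43 in acetyltransferase complexes was listed. Tdg, the glycosylase that excises oxidised methylcytosine, is named apart from these lists and fell from 60.5 ± 1.00 RPM to 9.64 ± 3.24 RPM (log2 change -2.69, limma adjusted p = 0.000410). Trim28, Setdb1 and Uhrf1, genes of histone H3 lysine 9 methylation and its link to DNA methylation, were not analysed here.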

How the data were processed

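Expression was compared between 3 WT and 3 KO organoid libraries. Per the study's methods and the submitters' processing notes, the authors trimmed reads with Trim Galore 0.4.2, aligned them to GRCm38 with HISAT2 2.0.3, counted reads over exons in SeqMonk, called genes with DESeq2 on raw counts and deposited RPM values for 1420 called genes. The deposited p-value column holds the authors' own FDR and was not used.

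Here log2(RPM + 0.1) was fitted with limma 3.58.1 in R 4.3.3, moderated across all 1420 rows, with Benjamini-Hochberg adjustment over all rows and without a replicate block. SE and 95% intervals come from that fit. The fit was tested on simulated data with independent libraries, mostly unchanged genes and no length trend. That test therefore does not cover the prior selection of the genes or the spread between these libraries. Exact 2-sided permutation tests used scipy 1.17.1. Depth was read from the step between low RPM values, 100% of which (under 1000 reads) were whole within 0.02 reads. Intervals cover the spread between libraries. Read numbers show how many reads a value rests on and not its precision, as replicates differed by more than counting error. The chi-square statistic per gene for pairs of replicates was 15.46 to 25.97 in WT and 44.92 to 150.8 in KO. Rows were matched to GENCODE M21 by symbol and position, 1397 of 1420, of which 1242 had the same ends. Transcript length is that of the longest coding transcript, and exon length is the union of all annotated exons.

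Every gene the symbol rule found could be named. Values for each library were given for Smarcad1, for genes whose log2 change reached 1 in size, for histones and for up to 2 rises and 2 falls per role. The members, the gene lists and the marker lists were chosen with earlier results of these data known. Alternatives were a replicate block, a pseudocount of 1, a filter at the 25th percentile of mean RPM, libraries centred on their medians, an intensity trend, a length trend removed, other thresholds and leaving out each library. Count tests were not run, as the deposited values are normalised.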

Additional observations from a re-analysis of the deposited data

How the results depend on the processing

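Over 166 values of the 13 chromatin genes under the alternatives, 143 kept direction and call, 23 kept direction but lost the call at an adjusted p of 0.05, and 0 reversed. Of 104 values of the other named genes, 95 kept the call, 9 lost it and 0 reversed; 6 of the 9 were of Nap1l1, among them the replicate block (adjusted p = 0.0520) and the block with the length trend removed (adjusted p = 0.0554), 2 of Zranb3 and 1 of L3mbtl2. With a threshold of 0.01, 8 of the 13 genes and 59.5% of all rows were called. With genes below the 25th percentile of mean RPM removed, Chd5, H1fx and Prmt2 were no longer tested, which left 10 genes, all called, with 3 higher in KO, 1 with a log2 change of at least 1, 1 histone and 1 methyltransferase. A threshold of 1.5-fold in place of a log2 change of 1 gave 6 genes and 57.6% of all rows. H1fx was the 1 histone still called with a replicate block, with centred libraries, with a length trend removed, and with both the length trend removed and a replicate block. Under the last of these 1 of the 2 chromodomain or PHD-finger genes, Phf10, was called, and Cbx6 had an adjusted p of 0.0593. The cause of these losses was not tested.

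Leaving out 1 library at a time gave 9 to 13 called genes, with 5 to 8 lower in KO, 1 to 3 demethylases and 1 to 2 histones, while 80.1% to 98.9% of all rows were called. The lowest member count and the lowest share of rows both came without KO replicate 2, when Chd1, H2afv, Kdm4b and Kdm6b lost their calls, and the highest of both without KO replicate 3, when no call was lost. The others were 10 without WT replicate 1, WT replicate 2 or KO replicate 1, each time without Chd1, H2afv and Kdm6b, and 11 without WT replicate 3, when Chd1 and Kdm4b were lost.

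WT and KO libraries share replicate numbers, and the correlations of their deviations from the group means were -0.084, 0.090 and 0.061. These values show little deviation shared by number. They cannot tell whether the libraries were prepared in pairs, which the labels do not say. With the replicate number as a block, 10 of the 13 genes were called, without Chd1, H2afv and Kdm6b, and 1351 of 1420 rows. Centring the libraries moved the median of all genes by -0.09 on the log2 scale.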
